A study of Bos taurus with 18 samples.

Results

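Bone marrow stromal cells release signals that act on blood-forming cells, on immune cells and on themselves, and 10 symbols of such signals were looked up in the count files: the cytokines IL6 and LIF, the chemokines IL8, CXCL2, CXCL5, CXCL12 and CCL5, the growth factors CSF1 and KITLG, and PTGS2, the cyclooxygenase that makes the precursor of prostaglandins. They are rows picked by name. Of the 10, 9 were found among the 16989 genes of the files, and CXCL5 was not. The study asked whether the transcriptome of single-cell-derived colonies of bovine mesenchymal stem cells (MSCs) foretells how much cartilage-like matrix a colony makes later. RNA came from 17 clones, called A to Q, and from 1 heterogeneous population that had not been cloned. All 18 cultures were bone marrow derived MSCs of juvenile cattle, grown on plastic as a monolayer in DMEM with serum and antibiotics, with no genetic change and no inducer. Each clone is the progeny of 1 cell and was sequenced once, so the spread between clones includes the preparation of each library. The sources do not say how many animals the clones came from.

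Cytokines are secreted proteins that bind receptors at the cell surface and change what the receiving cell transcribes, and chemokines are small members of this world that attract moving cells along a gradient. In marrow, stromal cells are a main source of CXCL12 and KITLG, which hold haematopoietic stem cells in place and keep them alive, and of CSF1, on which macrophages depend. IL6, LIF, IL8, CXCL2 and PTGS2 are made at a low level at rest and rise together in many cell types after an inflammatory stimulus, through NF-kB and through a longer life of their mRNAs.

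The clone libraries held 11484812 to 18458157 reads on genes (median 14193790) and the heterogeneous population 16092501. Levels are given as reads and as CPM, reads scaled to the total on genes and multiplied by 1e6, and differences between libraries as log2(CPM + 0.25). A count of 3 reads, taken as the floor below which no level is read, equalled 0.162 to 0.261 CPM. All 10 mesenchymal stromal markers of the list, among them THY1, NT5E and ENG, had reads in every clone (summed 54000 to 194636 CPM), while CD163, the scavenger receptor of macrophages, had 0 to 12 reads per clone and 667 in the heterogeneous population. Clones C and O were nearer to each other than any other pair. They differed by 0.239 log2 units (root mean square over 11406 genes) against 0.410 for the next pair, E and F, and by a chi-square of 4.73 per gene, more than reads sampled from 1 library would give. The labels call them separate clones, and they were kept as 2 samples. Whether they grew from separate cells is not shown by these values, since 2 preparations of 1 colony would also differ by more than read sampling. Differences of the heterogeneous population and pairs of signals that rest on them are given with and without them, as are LIF with LIFR and with MKI67. Spreads, lists of the most similar genes, CCL5 with MKI67, IL6 with SOCS3 and KITLG with KIT are given with both clones kept.

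The cytokine genes spread widely between clones. IL6, which signals through IL6R and gp130 and drives acute-phase, B-cell and osteoclast responses, had 23 reads in the lowest clone, a median of 192 and 1832 in the highest. Its level was 1.67 CPM in clone K, 14.3 CPM at the median and 116 CPM in clone O, a ratio of 69.8 from the highest to the lowest clone. Clone C followed at 92.1 CPM and clone E at 35.3 CPM, and at the other end clone L had 2.07 CPM and clone D 3.57 CPM. The SD of IL6 over the 17 clones was 1.68 log2 units, larger than in 99.3% of the 11477 genes with over 1 CPM in some clone, whose median SD was 0.346. Clones C and O together held 3134 of the 6024 IL6 reads of all clones, or 52.0%. In the order of the 17 levels, 4 of the 16 neighbouring pairs had counting intervals (exact Poisson, 95%) that did not overlap: O over C, C over E, E over Q and I over J. These intervals, like all counting intervals here, cover counting error only. The heterogeneous population had 59 IL6 reads (3.67 CPM), below 14 of the 17 clones.

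LIF, a cytokine of the same family that signals through LIFR and gp130, had 10 reads in the lowest clone, a median of 38 and 590 in the highest. It reached 37.5 CPM in clone O and 32.3 CPM in clone C, then 11.2 CPM in clone L and 9.60 CPM in clone G, and the other 13 clones lay between 0.827 CPM (clone Q) and 4.63 CPM (clone H). The SD was 1.57 log2 units, larger than in 99.1% of genes, and clones C and O held 58.7% of all LIF reads of the clones. All 17 clones lay above the heterogeneous population, which had 10 reads (0.621 CPM). Of the neighbours in the order, C and L did not overlap in their counting intervals, nor did G and H.

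PTGS2 was low in most clones. It had no read in clones K and L, a median of 5 reads and 65 reads in clone O, and 5 clones had 10 reads or more. Clone O stood at 4.13 CPM, clone C at 3.11 CPM and clone E at 1.36 CPM, against a median of 0.406 CPM that is not far above the floor. The same 2 clones, O and C, were thus first and second for IL6, LIF and PTGS2, and held 53.2% of the 205 PTGS2 reads. The heterogeneous population had 6 PTGS2 reads (0.373 CPM), inside the range of the clones.

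**Figure D1:**
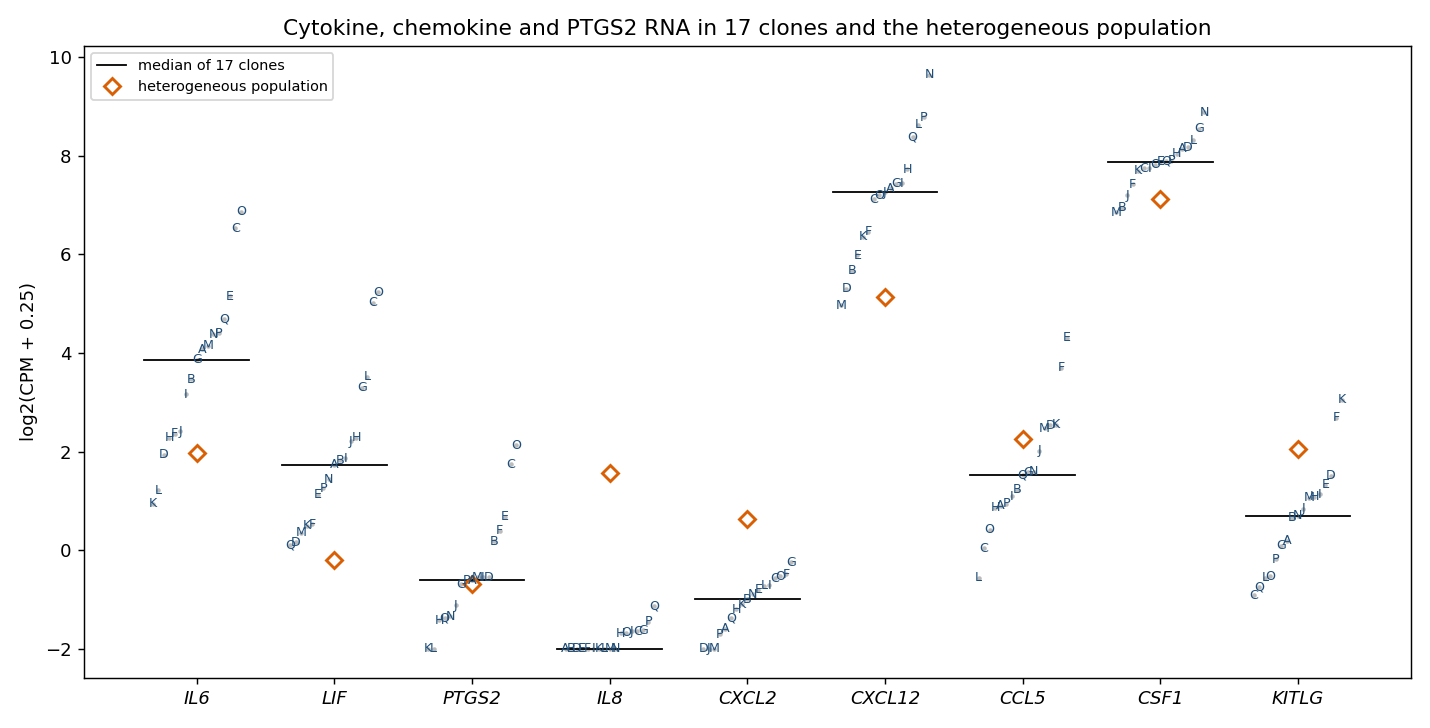
Levels of the 9 genes, log2(CPM + 0.25) on the y axis, with each clone drawn as its letter, the line at the median of 17 clones and the diamond for the heterogeneous population. Clones O and C lead IL6, LIF and PTGS2, and the diamond lies above every clone for IL8 and CXCL2 and below every clone for LIF.

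The neutrophil-attracting chemokines IL8 (CXCL8 in current annotation) and CXCL2, both ligands of CXCR2, were at or near the floor in the clones. IL8 had 0 reads in 10 clones, 1 read in 5 clones, 2 reads in clone P and 3 reads in clone Q, 10 reads in all. A count of 0 was read only as a level below the floor of 3 reads. CXCL2 had 0 to 8 reads per clone, 61 in all, with 14 clones holding at least 1. No order can be read for either gene, since none of the 16 neighbouring pairs had counting intervals apart. The heterogeneous population had 44 reads of IL8 (2.73 CPM) and 21 of CXCL2 (1.30 CPM). The symbol CXCL5 is absent from the files, but the RefSeq gene table of the later assembly ARS-UCD2.0 gives CXCL6 and GCP2 as synonyms of its CXCL5 entry. The gene the files call CXCL6, not counted among the 9, had 16 to 602 reads in the clones. It stood at 1.38 CPM in clone Q, 11.05 CPM at the median and 43.0 CPM in clone L, with 40.3 CPM in clone I and 38.2 CPM in clone G. The heterogeneous population had 17.8 CPM, inside that range.

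CXCL12, the ligand of CXCR4 that retains haematopoietic cells in marrow, was read well in every clone, with 452 reads at the lowest, 2178 at the median and 11039 at the highest. Its level was 31.1 CPM in clone M, 39.4 CPM in clone D, 153 CPM at the median, 440 CPM in clone P and 802 CPM in clone N. The ratio of highest to lowest was 25.8 and the SD 1.27 log2 units, larger than in 96.8% of genes. With this depth, 10 of the 16 neighbouring pairs had counting intervals apart. The heterogeneous population, with 564 reads (35.0 CPM), lay below 16 of the 17 clones, and clone M alone was lower.

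CCL5, which attracts T cells and monocytes, had 6 reads at the lowest, 37 at the median and 304 at the highest. Clone E at 19.6 CPM and clone F at 12.8 CPM stood above the rest, whose highest was clone K at 5.59 CPM, and clone L at 0.429 CPM and clone C at 0.778 CPM were the lowest. Its SD was 1.25 log2 units, larger than in 96.6% of genes. The neighbours E and F, and F and K, were apart in their counting intervals, and the other 14 neighbouring pairs overlapped. The heterogeneous population had 73 reads (4.54 CPM), with 5 clones above it.

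Among the growth factors, CSF1, the survival factor of macrophages, had the smallest spread of the 6 genes read in most clones. It had 1952 reads at the lowest, 3435 at the median and 6519 at the highest, and ran from 115 CPM in clone M to 473 CPM in clone N, with clone G at 375 CPM. Its ratio of highest to lowest was 4.11 and its SD 0.53 log2 units, larger than in 73.6% of genes. The heterogeneous population, at 140 CPM (2254 reads), lay below 15 of the 17 clones. KITLG, the stem cell factor that binds KIT on blood stem cells and mast cells, had 4 reads at the lowest, 21 at the median and 111 at the highest. Clones K at 8.06 CPM and F at 6.18 CPM stood above the others, the next of which was clone D at 2.61 CPM, and clone C was lowest at 0.283 CPM. Its SD was 1.12 log2 units, larger than in 95.1% of genes, and with so few reads it holds counting error too. The neighbours F and D were apart in their counting intervals, and the other 15 neighbouring pairs overlapped. The heterogeneous population, with 63 reads (3.91 CPM), lay above 15 of the 17 clones.

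**Figure D2:**
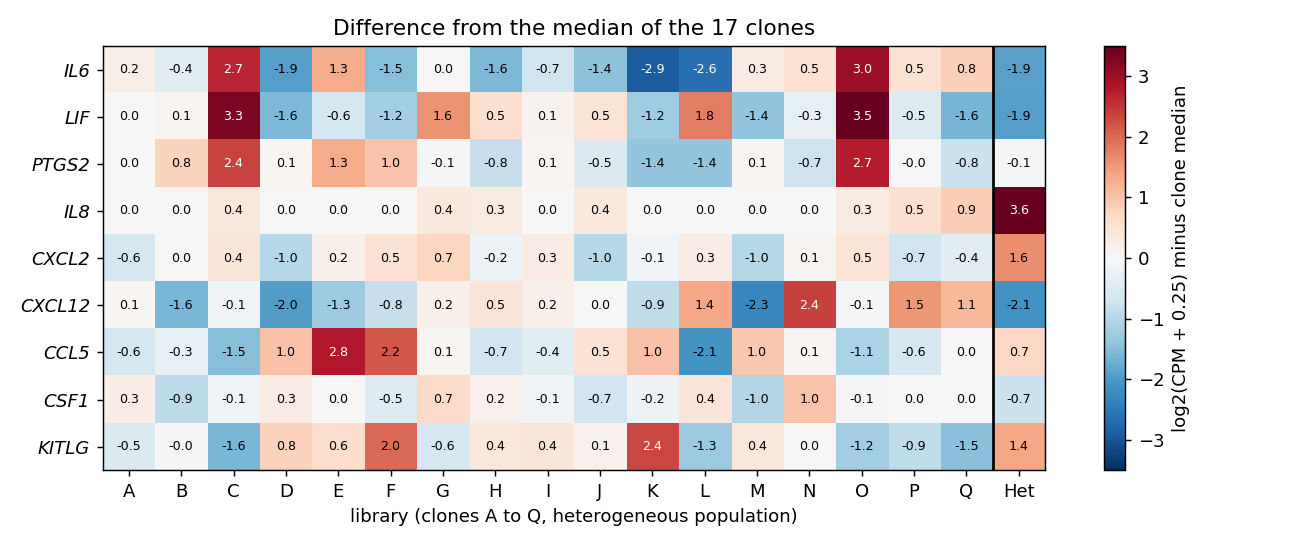
Difference of each library from the median of the 17 clones, in log2(CPM + 0.25), for the 9 genes (rows) in clones A to Q and the heterogeneous population, Het (columns), red for above and blue for below the median. Clones C and O are red for IL6, LIF and PTGS2 and blue for CCL5 and KITLG, and clone N is reddest for CXCL12 and CSF1.

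The edgeR coefficient of biological variation between clones was 101% for IL6, 105% for LIF, 90.7% for CCL5 and 73.9% for CXCL12. The values fitted for genes of their abundance were 29.9% for IL6, 40.2% for LIF, 42.0% for CCL5 and 28.3% for CXCL12. The median was 22.3% over 10351 genes with enough reads over the clones. CSF1 had 31.7%, near the 28.6% fitted for genes of its abundance. IL8, CXCL2, KITLG and PTGS2 had too few reads in too many clones for this estimate.

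Each clone was then compared with the 16 others, to ask in which of them a signal stood apart from the spread of the rest (edgeR quasi-likelihood test, Benjamini-Hochberg adjusted over 11761 genes in each of 17 fits). Of the 9 genes, 7 could be tested in every fit, and IL8 and CXCL2 had too few reads. Of the 119 comparisons, 0 had an adjusted p under 0.05. Over all genes, 0.731% were called when clone N was set apart, 0.034% for clone M and 0% for the 15 remaining clones. At an unadjusted p under 0.05 there were 8 such comparisons, or 6.72% of the 119, where the mean over all genes was 4.40%. These were all higher in the named clone: IL6 (log2 difference 2.63), LIF (2.82) and PTGS2 (2.67) in clone O, LIF (2.53) in clone C, CCL5 (2.70) in clone E, KITLG (2.31) in clone K, and CXCL12 (2.15) and CSF1 (0.91) in clone N. The lowest adjusted p among them was 0.189, for CXCL12 in clone N. The share of all genes at the unadjusted cut ran from 0.442% in clone B to 16.5% in clone N. It was 7.56% in clone O, 2.91% in clone C, 2.16% in clone E and 1.35% in clone K. Clone C stays among the clones that O is compared with. Limma-voom called 1 of the 119, LIF in clone O (log2 difference 3.56), where 0.281% of all genes were called. By limma-voom 13, or 10.92%, had an unadjusted p under 0.05, where the mean over all genes was 5.08%. DESeq2 called 0 of the 113 it could test. By DESeq2 15, or 13.27%, had an unadjusted p under 0.05, where the mean over all genes was 5.19%. With clone C taken out, edgeR called 0 of the 7 in clone O, where 0.204% of all genes were called. Of the 7, 3 had an unadjusted p under 0.05 there, as did 13% of all genes.

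The uncloned culture was next set against the progeny of single cells. This compares 1 library with 17, and its own spread, which was not measured, was taken to be that of the clones. Of 11878 genes tested, 145 were called, 144 of them higher and 1 lower in the heterogeneous population, so that 1.22% of genes were called in either direction, 1.21% as higher and 0.00842% as lower. A filter on low counts precedes the test, and 117 of the tested genes, 85 of them called, passed it only through the heterogeneous population. A gene that passes in this way had to lie higher there. IL8 and CXCL2 were among the 117, so their direction was set by the filter and their values are given as a description. The other 7 genes passed in the clones alone, as did 11761 genes in all, of which 0.502% were called as higher, and 0 of the 7 were called. IL8 was the called gene of the 9, with a log2 difference of 5.92 (SE 0.74, edgeR adjusted p = 4.65e-05). With no filter, over 14441 genes with 1.41% called as higher, its log2 difference was 5.92 too (SE 0.72, edgeR adjusted p = 3.42e-05). Its 44 reads stood against 10 in all 17 clones together, a ratio of CPM of 68.1 with a counting interval from 33.8 to 152. Against clone Q, the highest with its 3 reads, the ratio was 13.2, with an interval from 4.24 to 66.6. CXCL2 lay above every clone too, at 5.33 times their summed level (counting interval 3.08 to 8.88), and its log2 difference of 2.46 (SE 0.92) did not pass the adjustment (edgeR unadjusted p = 0.0151, adjusted p = 0.477). Against clone G, its highest clone, the ratio was 2.19 with an interval from 0.933 to 5.73, which takes in 1.

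Among the 7 genes that did not need those reads to be tested, LIF lay below all 17 clones, where 10.9% of all genes did, and had a log2 difference of -3.36 (SE 2.33, edgeR adjusted p = 0.726). IL8 and CXCL2 were above all 17 clones, where 6.62% of all genes were. Both passed the filter only through the heterogeneous population, which set their direction, so that percentage is no measure for them. The differences were -2.58 for IL6 (SE 2.06), -2.41 for CXCL12 (SE 1.42), -0.69 for CSF1 (SE 0.49), -1.02 for PTGS2 (SE 1.95), 0.11 for CCL5 (SE 1.39) and 1.06 for KITLG (SE 1.18), with adjusted p-values from 0.698 to 0.988. Without clones C and O the differences were -1.74 for IL6, -2.31 for LIF and -0.17 for PTGS2, again short of the threshold (adjusted p 0.797, 0.738 and 0.986). The median over the 7 genes was -1.02, and over the 11761 genes that passed in the clones alone -0.04. The -1.02 is the value of PTGS2, so it rests in part on clones C and O. These SEs carry the spread between clones, which was wide for IL6, LIF and CXCL12. With 1 clone left out, the log2 difference of IL8 ran from 5.84 to 6.27, in a direction that the filter had set.

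Some other chemokines and receptors were called in the same library and more were not. Of 28 further chemokine genes in the files, 22 had a read in some library, and with no filter 6 of these 22 rose and 0 fell in the heterogeneous population, with a median log2 difference of 0.45. Of the 6 chemokines that passed the filter in the clones alone, 2 rose and 0 fell. CCL2, which attracts monocytes through CCR2, had 273 reads against 0 to 12 in the clones (log2 difference 5.49). GRO1, a close relative of CXCL2, had 85 reads against 0 to 13 (log2 difference 4.12, edgeR adjusted p = 0.00389). How reads that fit more than 1 of these related genes were treated was not checked. The split between GRO1, CXCL2 and CXCL3 is therefore uncertain. CCL3, PPBP and PF4, products of macrophages and of platelets, had 39, 27 and 82 reads against at most 1, 1 and 6, and entered the test only through this library. Not called were CXCL3 (48 reads, log2 difference 0.88), CXCL6 (0.29), CXCL16 (0.61) and CCL25 (-0.53). Of the receptors, 4 passed the filter in the clones alone and 1 rose, CSF1R, the receptor of CSF1 (241 reads against 2 to 22), while CXCR4 (log2 difference 2.27), CXCR7 (0.35) and KIT (-2.31) were not called. CCR1 (203 reads against 0 to 5) was tested only through this library.

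Macrophage markers lay higher in the same library as IL8. Of the 18 in the files, 16 lay above every clone, and ITGAM had no read in any library. Their summed level was 260 CPM in the heterogeneous population and 13.7 to 102 CPM in the clones. Of the 10 that passed the filter in the clones alone, 8 rose and 0 fell, with a median log2 difference of 4.57, and with no filter 12 of the 17 with a read rose. The neutrophil and lymphocyte lists were mixed. S100A12 had 42 reads, where no clone had over 3, but S100A8 had 2, S100A9 3 and CSF3R and MPO 0. NKG7 had 109 reads against at most 4, but CD2, CD8A, PRF1, GZMA and GZMB had 0, and CD247, at 106 reads, lay inside its range in the clones of 50 to 261. The part of these cells in the IL8 difference was not tested. In bulk RNA, fewer cells of a type and less RNA per cell cannot be told apart. Of 10 mesenchymal stromal markers, 0 passed the test in either direction (median log2 difference 0.32), and 0 of 9 proliferation genes did (median -2.84).

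**Figure D3:**
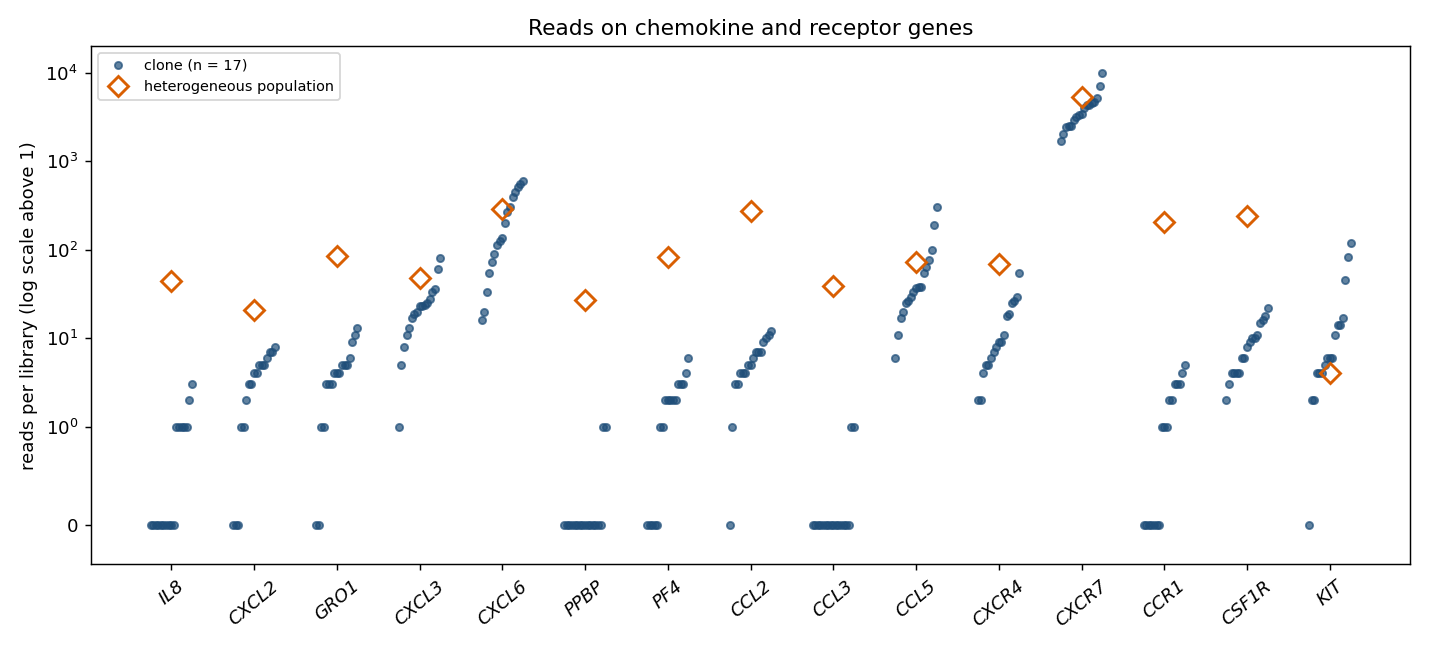
Reads per library on chemokine and receptor genes, on a y axis that is logarithmic above 1 and includes 0, with a point for each of 17 clones and a diamond for the heterogeneous population. The diamond stands far above the clones for IL8, GRO1, PPBP, PF4, CCL2, CCL3, CCR1 and CSF1R, and among them for CXCL3, CXCL6, CCL5 and KIT.

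Which signals varied together was asked over the 17 clones, for the 6 genes with at least 10 reads in at least 6 clones: IL6, LIF, CXCL12, CCL5, CSF1 and KITLG. They make 15 pairs. P-values are two-sided permutation p-values (100000 resamples), adjusted over the 15. By Pearson's r 5 pairs passed, and by Spearman's rho 3. CCL5 and KITLG rose together (r = 0.736, permutation p = 0.00081, adjusted 0.01215, with rho = 0.753, p = 0.0008, adjusted 0.0113). Without clones E and F, the 2 farthest from the median of CCL5, r was 0.726. The pair passed without any single clone. Of 11875 genes, 6.37% correlated as strongly with CCL5 as KITLG did, and 2.98% as strongly with KITLG as CCL5 did.

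LIF and CCL5 moved in opposite directions (r = -0.673, permutation p = 0.00313, adjusted 0.0235, with rho = -0.718, p = 0.00151, adjusted 0.0113). Clones C and O had the highest LIF and were among the 3 lowest in CCL5, and clones E and F had the highest CCL5 with LIF below the median. Without C and O, the 2 farthest in LIF, r was -0.613 (unadjusted permutation p = 0.0147), and without clone C alone the pair did not pass (r = -0.624, adjusted permutation p = 0.0513). Of all genes, 20.7% correlated as strongly with LIF.

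CXCL12 and CSF1 rose together (r = 0.648, permutation p = 0.00487, adjusted 0.0244, with rho = 0.618, p = 0.00963, adjusted 0.0481). The pair rests on clones N and M, which were highest and lowest for both genes. Without these 2, r was 0.369 (unadjusted permutation p = 0.173). Of all genes, 12.2% correlated as strongly with CXCL12 as CSF1 did, and 2.37% as strongly with CSF1 as CXCL12 did. Without clone M alone r was 0.554 (adjusted p = 0.0788) and without clone N alone 0.526 (adjusted p = 0.0780), both by permutation.

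KITLG was lower where IL6 was higher (r = -0.602, permutation p = 0.0109, adjusted 0.0328) and where LIF was higher (r = -0.604, permutation p = 0.0104, adjusted 0.0328). Of all genes, 3.90% correlated as strongly with IL6, and 28.3% as strongly with LIF, as KITLG did. In the other direction, 13.9% correlated as strongly with KITLG as IL6 did, and 13.5% as LIF did. By rank neither passed, with rho = -0.554 (p = 0.0234, adjusted permutation p = 0.0877) for IL6 and rho = -0.485 (p = 0.0513, adjusted permutation p = 0.124) for LIF. Without the 2 clones farthest from the median of the first gene, r fell to -0.419 for IL6 (without K and O) and -0.438 for LIF (without C and O). The IL6 pair was lost without any 1 of clones C, D, F, K, M and O, with r as weak as -0.492, and the LIF pair without any 1 of these or L, with r as weak as -0.523. IL6 and LIF did not pass as a pair (r = 0.452, permutation p = 0.0688, adjusted 0.129, rho = 0.132, p = 0.612, adjusted 0.707), and without clones K and O r was 0.166. Without C and O, the highest clones for both genes, it was -0.169.

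None of the 5 pairs passed once clones C and O were both left out, when 15 clones remained. CCL5 with KITLG had r = 0.672 and CXCL12 with CSF1 r = 0.649 (both adjusted permutation p = 0.0677), and LIF with CCL5 had an adjusted permutation p of 0.0737. With edgeR's TMM factors in place of library totals, CCL5 with KITLG (r = 0.762, adjusted permutation p = 0.00705) and LIF with CCL5 (r = -0.642, adjusted permutation p = 0.0428) passed and the other 3 did not.

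**Figure D4:**
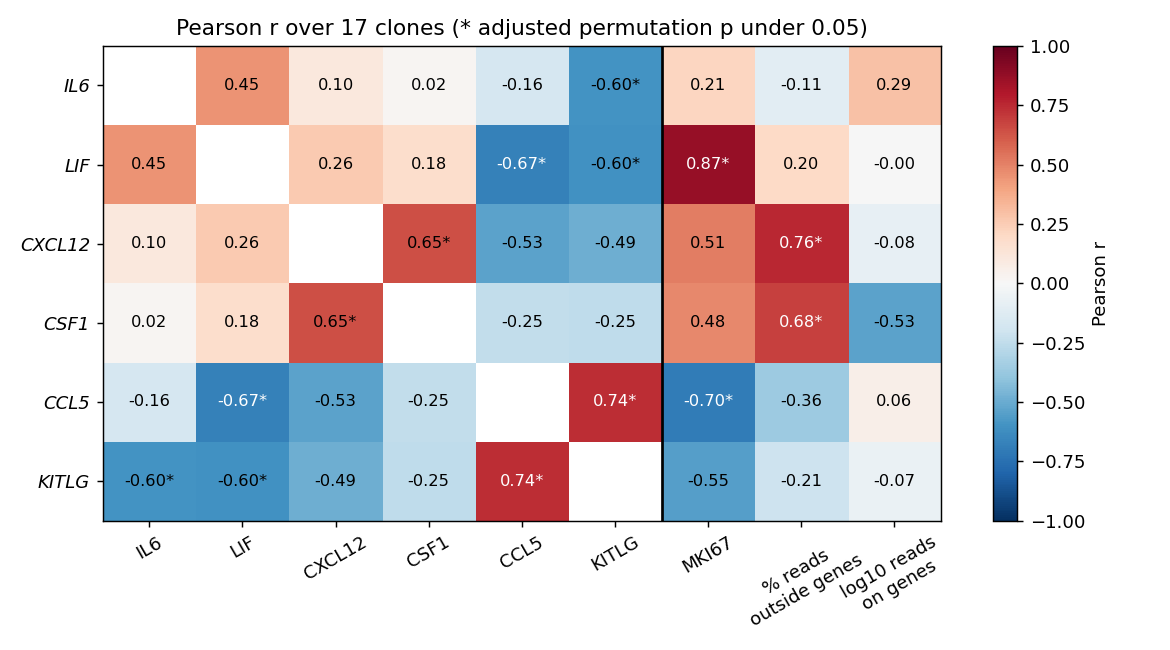
Pearson r over 17 clones between the 6 genes with at least 10 reads in at least 6 clones. Right of the line is r with MKI67, the percent of reads outside genes and log10 of the reads on genes. A star marks a permutation p, adjusted within its family, under 0.05. The strongest cells are LIF with MKI67 (0.87), CXCL12 with the percent of reads outside genes (0.76) and CCL5 with KITLG (0.74).

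Measures of the libraries moved with some of these genes, in 4 of 18 pairs adjusted together. LIF rose with MKI67, a gene of cycling cells (r = 0.867, permutation p = 3e-05, adjusted 0.00054, with rho = 0.809, p = 0.00019, adjusted 0.00342), and without clones C and O r was 0.828. MKI67 ran from 19.4 CPM in clone M to 650 CPM in clone L, with 625 CPM in clone O and 561 CPM in clone C, and was 17.6 CPM in the heterogeneous population. LIF was correlated positively with all 9 proliferation genes of the list, with a median rho of 0.75 against 0.15 over all genes. As many as 1.95% of all genes correlated with LIF as strongly as MKI67 did, and 6.89% with MKI67 as strongly as LIF did. CCL5 fell as MKI67 rose (r = -0.700, permutation p = 0.00161, adjusted 0.00966, with rho = -0.745, p = 0.00082, adjusted 0.00492), and r was -0.758 without clones E and F, with 21.8% of all genes as strongly correlated with MKI67 as CCL5 and 10.1% with CCL5 as MKI67. CCL5 was correlated negatively with all 9 proliferation genes (median rho -0.69, against -0.19 over all genes). One sign over the 9 genes, of which MKI67 is 1, was not particular to LIF and CCL5. All 9 were positive for CXCL12 (median rho 0.61), CSF1 (0.44) and IL6 (0.11) as well, and 0 were for KITLG (-0.54). For KITLG and MKI67 r was -0.553 (permutation p = 0.0208, adjusted 0.0750), for CSF1 0.482 (permutation p = 0.04999, adjusted 0.113) and for IL6 0.214 (permutation p = 0.409, adjusted 0.623). CXCL12 and MKI67 passed by rank only (rho = 0.637, permutation p = 0.0074, adjusted 0.0333, with r = 0.513, p = 0.0355, adjusted 0.0912). MKI67 thus moved with both genes of the LIF and CCL5 pair, and its part in that pair was not tested. Its part in the pair of CCL5 and KITLG was not tested either.

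The percent of reads that fell outside genes ran from 18.8% to 26.8% over the clones and rose with CXCL12 (r = 0.757, permutation p = 0.00026, adjusted 0.00234, with rho = 0.765, p = 0.0007, adjusted 0.00492). Without clones M and N r was 0.607. It rose with CSF1 also (r = 0.680, permutation p = 0.00287, adjusted 0.0129), where rho was 0.561 (p = 0.0219, adjusted permutation p = 0.0756) and r without M and N was 0.446. Without clone N alone the CSF1 relation did not pass (r = 0.525, adjusted permutation p = 0.0821). Of all genes, 6.58% were as strongly correlated with this percentage as CXCL12, and 12.9% as CSF1. Its part in the pair of CXCL12 and CSF1 was not tested. None of the 6 genes passed with the total of reads on genes.

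Of 19 pairs of a signal with its receptor or with a partner in its pathway, 10 had enough reads to be tested. By Pearson's r 2 passed, and by Spearman's rho 0. LIF rose with its receptor LIFR (r = 0.745, permutation p = 0.00112, adjusted 0.0112, with rho = 0.544, p = 0.0260, adjusted 0.130). LIFR stood at 12.7 CPM in clone O, 10.97 CPM in clone C and 5.06 CPM in clone G, against a median of 3.38 CPM, so the 2 clones with most LIF also had most LIFR. Without C and O r was 0.306 (unadjusted permutation p = 0.265), and without clone O alone it was 0.624 (adjusted permutation p = 0.0620). CXCL12 rose with CXCR4 (r = 0.644, permutation p = 0.0058, adjusted 0.0290, with rho = 0.576, p = 0.0176, adjusted 0.130). CXCR4 had few reads, 2 to 54 per clone, with its highest level in clone P at 3.12 CPM. Without clones M and N r was 0.674, and the pair did not pass without any 1 of clones B, O, P and Q (r 0.586 to 0.666). Of all genes, 13% correlated with LIF as strongly as LIFR did, and 12.6% with CXCL12 as strongly as CXCR4.

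The other 8 tested pairs did not pass. SOCS3, which is induced by IL6-type signals and shuts them off, had r = 0.498 with IL6 (permutation p = 0.0440, adjusted 0.110). KIT, the receptor of KITLG, went the other way from its ligand (r = -0.494, permutation p = 0.0430, adjusted 0.110). It was highest in clone O at 7.57 CPM and clone C at 5.87 CPM, the clones among the 4 lowest in KITLG. CXCL12 had r = 0.363 with its second receptor CXCR7, and CSF1 had r = 0.1504 with CSF1R and 0.449 with IL34, the other ligand of CSF1R. IL6 had r = -0.233 with IL6R and -0.0974 with IL6ST, and LIF had r = -0.101 with IL6ST, which encodes gp130, the chain both cytokines signal through. These 6 had adjusted permutation p-values from 0.144 to 0.712. The receptor CXCR2 was not read well enough to pair with IL8 and CXCL2, with at most 3 reads per clone.

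**Figure D5:**
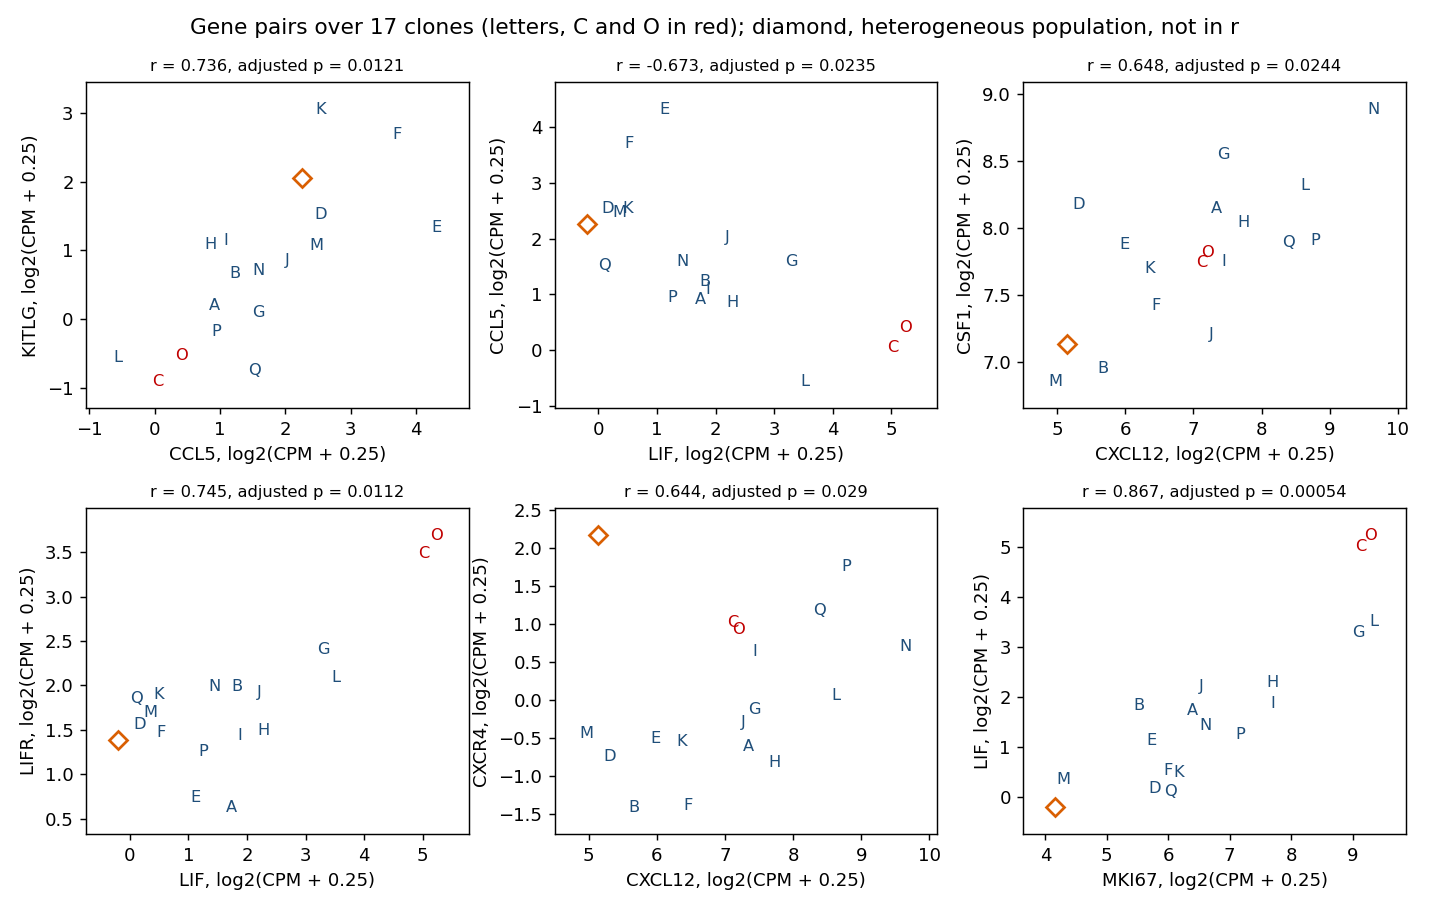
Levels of 6 gene pairs over 17 clones (letters, C and O in red), each axis in log2(CPM + 0.25), with r and its adjusted permutation p over each panel and the heterogeneous population as a diamond that is left out of r. C and O lie at the upper right for LIF against LIFR and MKI67, N and M at the ends of CXCL12 against CSF1.

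The genes whose levels were ordered most like those of each signal over the 17 clones were found by Spearman's rho among 11875 genes, and are given as a description. For IL6 they were AK4 (rho 0.909), SLC2A1 (0.885), DNAJC6 (0.868), TMEM45A (0.855) and HAS2 (0.850). SLC2A1, a glucose transporter, stood at 191 CPM in clone O and 180 CPM in clone C against a median of 56.5 CPM. HAS2, a hyaluronan synthase, had 4 to 84 reads. For LIF they were SND1 (0.949), UBA1 (0.941), SRGAP1 (0.941), DUT (0.939) and PSMC1 (0.939), which have between them roles in protein turnover, nucleotide synthesis and RNA. For CXCL12 they were RIN1 (0.941), SULF2 (0.924), LRRC42 (0.914), MB (0.909) and CD9 (0.907), of which SULF2 edits the sulphation of heparan sulphate and had 1481 to 8810 reads.

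For CCL5 the nearest genes included TACR2 (rho 0.922), ADAP1 (0.880), TRPM6 (0.880) and TTC39A (0.858), of which TACR2 had no more than 23 reads in a clone. For CSF1 they were SPTBN5 (0.826), TMEM79 (0.826), F11R (0.821), HEG1 (0.811) and SIRPA (0.804). For KITLG they were TNIK (0.922), PTPLA (0.902), ZNF706 (0.890), KCTD1 (0.887) and PPP1R3B (0.880). None of the other 8 signals was among the 5 nearest genes of any of the 6, and no gene was among the 5 nearest of 2 of them.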

How the data were processed

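Polyadenylated RNA of 18 cultures was read from 1 end over 50 bases. The authors aligned reads to bosTau7 with STAR 2.3.0e and counted reads per gene with HTSeq and the RefSeq annotation, release 103. The deposited values are raw read counts per gene and library, with no normalization, and the use of strand in counting is not given in the sources used here. The series-wide table was not used. Genes and lists were chosen with earlier results of these data known. Named genes are the listed signals, their receptors, the 5 genes nearest in rho, and from each further list up to 4 called genes or 2 others. Some genes that this rule names are not reported here.

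Counts were tested with edgeR 4.0.16 (quasi-likelihood, TMM, filterByExpr, R 4.3.3), with DESeq2 1.42.0 and limma-voom 3.58.1 as alternatives, after a check on simulated counts. Correlations used log2(CPM + 0.25) on totals of reads on genes (scipy 1.17.1). HTSeq's rows for reads outside genes, 18.8% to 26.8% of reads in the clones, were left out of totals. Labels give no animal or batch, so p-values measure the spread between clones. Library depth sets a floor of 3 reads. Alternatives with clones C and O averaged or left out, and counts of the gene lists under other filters, were added after the data were seen.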

Additional observations from a re-analysis of the deposited data

How the results depend on the processing

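No paired analysis was possible because the labels give no replicate numbers shared between groups and the heterogeneous population is 1 library. IL8 stayed the called gene of the 9 in the heterogeneous population in every alternative run, though with DESeq2 it lay close to the threshold. Its log2 difference by DESeq2 was 6.19 with an SE of 1.72, against an SE of 0.74 by edgeR. IL8 and CXCL2 passed the filter on low counts only through this library, which set their direction in the runs that used it. The run with no filter alone was free of this limit. Of the 7 genes that passed in the clones alone, 0 were called in the main setting. In all, 145 genes were called, 144 of them higher, against 137 to 155 with 1 clone left out. There were 216 with limma-voom, 204 with no filter and 88 with DESeq2, 77 higher and 11 lower. The 9 log2 differences kept their sign except CCL5, -0.0292 without clones C and O, and PTGS2, 0.0797 with limma-voom, neither near the threshold. With library totals alone the median over all genes moved from -0.04 to -0.12. Of the clone-against-others comparisons, limma-voom called 1 and the other alternatives 0.

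Pairs of signals called were 5 in the main setting, 2 with TMM, 2 with DESeq2 size factors, 3 with C and O averaged, 0 without both, 1 among genes with 10 reads in every clone, 3 by rank and 2 to 6 with 1 clone left out. Pairs with a receptor or partner were 2, then 1 with TMM, 1 with DESeq2 size factors, 1 with C and O averaged, 1 without both, 0 by rank and 0 to 4 with 1 clone left out. Pairs with a library measure were 4, and 4 to 5 with 1 clone left out, not always the same pairs. The causes of these shifts were not tested. The depth limits IL8, CXCL2 and PTGS2, and KITLG in part, to a description of few reads.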

Other observations

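Other secreted signals and the pathways around them were described by lists. Of 13 further cytokine genes tested in the heterogeneous population, 1 rose and 0 fell (median log2 difference -0.60). FLT3LG, a growth factor of blood progenitors and dendritic cells, rose by 1.31 (edgeR adjusted p = 0.0455), with 223 reads against 51 to 131 in the clones. Of 10 genes of the IL6 family and its receptors 0 were called in either direction (median 0.45), as of 21 NF-kB genes (0.48), 12 immediate early genes (0.44), 8 genes of AU-rich mRNA decay (0.01), 11 genes of the prostaglandin pathway (-0.48) and 13 genes of marrow niche stroma (0.05). Of 9 interferon-stimulated genes that passed the filter on low counts in the clones alone, 2 rose and 0 fell (median 1.65), MX1 (log2 difference 4.84) and ISG15 (3.79). With no filter, 1 of 10 T and NK cell genes, 2 of 6 neutrophil genes, 3 of 6 megakaryocyte and platelet genes and 1 of 5 endothelial genes rose and none fell, and 0 of 3 erythroid, 0 of 7 adipocyte and 0 of 6 osteoblast genes were called.

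Over the clones, the median rho with the 8 AU-rich mRNA decay genes was 0.51 for CXCL12 (7 of 8 positive), 0.45 for LIF (8 of 8) and 0.40 for CSF1 (8 of 8), and was -0.57 for CCL5 and -0.48 for KITLG (0 of 8 positive for both). Over all genes the median and the percent positive were 0.25 and 71.9% for CXCL12, 0.15 and 60.1% for LIF, 0.19 and 71.0% for CSF1, -0.19 and 36.8% for CCL5, and -0.14 and 39.0% for KITLG. IL6 had 4 of 8 positive. With the 21 NF-kB genes, IL6 had 14 positive (66.7%) against 46.4% of all genes, and a median rho of 0.06 against -0.03. The count of positive NF-kB genes was higher for CXCL12 (18) and CSF1 (16) and lower for LIF (11), CCL5 (8) and KITLG (6). Over these 17 clones the proliferation genes also shared a sign of rho with each of the 6 signals. Their part in this was not tested.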
